A study of Mus musculus with 3 samples.

Results

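The MHC class I presentation machinery is described here by 10 genes, H2-K1, H2-D1, H2-T23, H2-M3, H2-M2, B2m, Tap1, Tap2, Tapbp and Nlrc5, out of 24453 gene symbols in the deposited table. They were taken by symbol, each with its longest coding RefSeq transcript, and all 10 were found. The table holds RNA-seq values of macrophages from 3 organs of C57BL/6 mice, the heart, the liver and the kidney, with 1 library for each. The mice were 8 weeks old and in the steady state. Cells of all 3 libraries were sorted as positive for CD11b and F4/80 and negative for Ly6G and Ly6C, and their RNA was amplified with a kit for low input. The liver library is labelled Kupffer cells, which are macrophages that reside in liver sinusoids. How many animals were pooled is not given in the sources used here.

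MHC class I molecules show fragments of a cell's own proteins, including those of viruses inside it, to CD8 T cells and to natural killer cells. A heavy chain pairs with the light chain beta-2 microglobulin in the endoplasmic reticulum. Proteasomes cut the peptides, the transporter TAP carries them across the membrane, and tapasin holds the empty molecule beside TAP until a peptide binds. Interferons raise most of these genes, and NLRC5 is the coactivator that works at their promoters. Macrophages use the same route for peptides of engulfed material, which is called cross-presentation.

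Levels are RPKM, that is reads for each kilobase of exon and each 1000000 reads counted, so levels of different genes are compared per length. Read numbers were recovered from the steps of low values and came to 14460649, 16743423 and 15550843 over all transcripts. Here and below, 3 values in a row without a tissue name stand for heart, liver and kidney in that order. Intervals are exact 95% Poisson intervals of the reads, and those of ratios are exact Clopper-Pearson intervals. Both cover counting error only. Without replicates nothing was tested against the spread between animals, and each comparison is of single libraries. Less RNA of a gene per cell and fewer cells that express it cannot be told apart in such bulk samples. All 7 pan-macrophage markers were at RPKM of at least 1 in every library, and their sum was 1799, 1840 and 1700 RPKM. Markers of other cells were present too. The 12 T and NK cell genes found summed to 21.6, 90.9 and 17.01 RPKM, with Cd3e, Cd3d and Cd3g at 0 reads outside the liver and Ncr1 at 0 in all 3. The 6 B and plasma cell genes summed to 35.9, 303.9 and 167.7 RPKM, most of it from Cd79b, and Pax5 had 0 reads everywhere. Jchain, of the same list, stood at 0, 81.95 and 0 RPKM. The 8 dendritic cell genes summed to 289, 6.63 and 27.1 RPKM, led by Cd209a in the heart, with Itgae at 0 reads outside the kidney and Flt3 at 0 outside the heart. The 7 monocyte and neutrophil genes, led by Ccr2, summed to 133.9, 68.4 and 232 RPKM, with Mpo at 0 reads everywhere. The 9 endothelial genes summed to 347, 286 and 12.4 RPKM, led in the heart by Lyve1, which some macrophages also carry, with Stab2 at 0 reads outside the liver. The 7 hepatocyte genes summed to 0.455, 287 and 0.22 RPKM. The 7 renal tubule genes summed to 0.063, 2.27 and 423 RPKM, with Umod at 0 reads outside the kidney. The 8 cardiomyocyte and fibroblast genes summed to 130.9, 8.5 and 0.968 RPKM, of which Dcn made 124.6, 8.15 and 0.48. These cells also carry class I, and their part in the levels below was not tested.

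The classical heavy chains H2-K1 and H2-D1, which present peptides to CD8 T cells, were abundant in all 3 libraries and highest in the kidney. H2-K1 had 147 RPKM in the heart (142 to 152), 169.6 in the liver (165 to 175) and 219 in the kidney library (213 to 225). H2-D1 stood at 124 (120.0 to 129), 163 (159 to 168) and 231 RPKM (225 to 237). The 3 levels of each gene have intervals that do not overlap, in the order heart, liver, kidney. For H2-K1 the kidney level was 1.49 times the heart level (1.43 to 1.56) and for H2-D1 1.86 times (1.78 to 1.94). The step from heart to liver was smaller, 1.16 times for H2-K1 and 1.31 times for H2-D1, and for H2-K1 it turned round with median ratio scaling, where heart minus liver was 0.03 log2 units against -0.21 as deposited. H2-K1 lies on mm10 chromosome 17, 33996012 to 34000333, and H2-D1 at 35263094 to 35267497 of the same chromosome. Reads may be shared between such similar genes: of the windows of 50 bases along the matched GENCODE transcript, 8.79% for H2-K1 and 14.3% for H2-D1 also occur in another gene.

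Of the nonclassical heavy chains, H2-T23 and H2-M2 differed more between the libraries than the classical ones, while H2-M3 spanned about as much as H2-D1. H2-T23 encodes Qa-1, which displays leader peptides of other class I chains to receptors of natural killer cells. It stood at 45.9 RPKM in the heart (42.9 to 49.1), 69.95 in the liver (66.5 to 73.6) and 161 in the kidney library (156 to 167), 3.51 times the heart level (3.26 to 3.79). The kidney library thus stood apart for this gene, also 2.3 times above the liver (2.17 to 2.45), although 29.8% of its windows of 50 bases occur in other genes, such as the pseudogene H2-T-ps. H2-M3 presents peptides that begin with N-formylmethionine, as bacterial and mitochondrial proteins do. It stood at 97.5 RPKM in the heart (93.3 to 102), 183 in the liver (177 to 189) and 183 in the kidney library (178 to 189). The liver and kidney levels did not differ beyond counting error, with a ratio of 1.001 (0.959 to 1.046), and both were near 1.88 times the heart level. H2-M3 shares 0.576% of its windows with another gene.

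H2-M2 had the widest range of the 10 genes, 3.64 log2 units. It stood at 1.73 RPKM in the heart (1.22 to 2.37, from 38 reads), 33.1 in the liver (30.9 to 35.4, from 843 reads) and 32.6 in the kidney library (30.3 to 34.98, from 772 reads). The liver level was 19.2 times (13.8 to 27.3) and the kidney level 18.9 times (13.6 to 26.9) the heart level, while kidney over liver was 0.986 (0.893 to 1.088). The heart was the single low library, and liver and kidney did not differ beyond counting error. Of the 5 heavy chains' summed RPKM, H2-M2 made 0.415%, 5.34% and 3.94%. The gene lies on chromosome 17, 37480851 to 37483529, and shares 1.67% of its windows with other genes. Among 5473 other genes with RPKM of at least 10 in some library, the profiles nearest to H2-M2 were those of Dnase1l3, Icam2, Aldh1l1, Fam173b and Psmg3. Likeness was the Euclidean distance of log2(RPKM + 1) centred over the 3 libraries, from 0.20 to 0.47 for these genes, and 3 points make it a weak guide. Dnase1l3, a secreted nuclease, stood at 5.305, 91.4 and 91.6 RPKM, and Icam2, an adhesion molecule, at 0.73, 17.98 and 22.5 RPKM.

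The promoters of 4 members are shown because their genes had unlike profiles: a shallow gradient for H2-K1, a high kidney level for H2-T23, a low heart level for H2-M2 and level values for B2m. Each window runs from 250 bases before to 50 bases after the gene's start and comes from RefSeq on GRCm38.p6. For H2-M2 this start lies 25 bases from the deposited one, and distances given below are from the start used for the window. H2-K1 is chr17:34000284-34000583 on the minus strand, H2-T23 is chr17:36032652-36032951 on the minus strand, H2-M2 is chr17:37483505-37483804 on the minus strand and B2m is chr2:122147437-122147736 on the plus strand. Capitals mark letters that match, on either strand, GAAA, any 2 bases and GAAA again (an interferon response element), its shorter form GAANNGAAA, GGG, any 5 bases and CC (a loose form of the NF-κB site), TGACG (the core of the X2 box) or CCAAT (the Y box).
H2-K1: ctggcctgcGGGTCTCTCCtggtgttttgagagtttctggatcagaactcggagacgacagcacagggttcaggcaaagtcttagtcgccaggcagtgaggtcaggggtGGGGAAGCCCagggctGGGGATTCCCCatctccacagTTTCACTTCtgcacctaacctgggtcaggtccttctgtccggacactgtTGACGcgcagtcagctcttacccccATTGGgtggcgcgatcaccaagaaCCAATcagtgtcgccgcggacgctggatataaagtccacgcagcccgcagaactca
H2-T23: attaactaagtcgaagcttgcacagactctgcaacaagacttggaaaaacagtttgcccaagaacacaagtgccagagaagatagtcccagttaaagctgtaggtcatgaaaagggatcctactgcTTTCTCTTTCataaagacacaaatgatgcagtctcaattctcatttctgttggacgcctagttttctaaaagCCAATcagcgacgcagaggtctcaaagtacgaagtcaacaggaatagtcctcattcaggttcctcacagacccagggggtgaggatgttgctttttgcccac
H2-M2: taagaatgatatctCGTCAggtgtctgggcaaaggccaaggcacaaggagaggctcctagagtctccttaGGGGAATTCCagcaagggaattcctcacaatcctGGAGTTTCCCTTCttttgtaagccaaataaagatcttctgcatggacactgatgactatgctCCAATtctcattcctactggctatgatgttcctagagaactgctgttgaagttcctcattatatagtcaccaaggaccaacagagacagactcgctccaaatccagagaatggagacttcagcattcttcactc
B2m: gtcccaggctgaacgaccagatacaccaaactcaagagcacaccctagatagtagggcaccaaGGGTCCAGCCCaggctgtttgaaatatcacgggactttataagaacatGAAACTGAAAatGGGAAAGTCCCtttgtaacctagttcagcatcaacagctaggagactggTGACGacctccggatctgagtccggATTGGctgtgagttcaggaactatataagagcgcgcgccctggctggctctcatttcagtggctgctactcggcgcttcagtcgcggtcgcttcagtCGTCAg

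Promoters of 8 members matched the RefSeq table, and those of Tap2 and Nlrc5 did not. CCAAT occurred in all 8, against 37.4% of all 32817 promoter windows, TGACG in 6 against 20.8%, and the NF-κB-type letters in 6 against 50.8%. The longer interferon-type letters occurred in H2-T23 and B2m, against 3.43% of all promoters. GAANNGAAA, added after the sequences were seen, occurred in H2-K1, H2-D1, H2-M3 and H2-M2, against 7.52%. TTCNNNGAA, the site of STAT factors, occurred in 1, H2-M3, against 8.29%. In H2-K1 the interferon-type match begins 104 bases before the start, TGACG 55 bases before it and the first CCAAT-type match 30 bases before it. In H2-M2 the interferon-type match begins 142 bases before the start and overlaps an NF-κB-type match, and the TGACG match lies farther upstream, 236 bases before the start. H2-T23 held neither TGACG nor the NF-κB-type letters in this window. The H2-K1 and H2-D1 windows were the most alike pair, identical at 70.9% of 254 aligned bases without gaps, while H2-M2 and H2-K1 reached 37.9%. A match of letters is a description and not a bound site.

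B2m, the light chain that every class I heavy chain needs, was at nearly the same level in the 3 libraries. It stood at 599 RPKM in the heart (585 to 613), 621 in the liver (608 to 634) and 581 in the kidney library (568 to 594), among the 7 most abundant genes of each. Heart over kidney was 1.03 (0.998 to 1.064), which counting error covers, and as deposited the differences lay between -0.10 and 0.04 log2 units. Heart minus liver was -0.05 as deposited, 0.13 with TPM and 0.19 with median ratio scaling, and so changed sign. Kidney minus liver was -0.10, 0.02 and -0.06 in that order. Heart minus kidney kept its sign, at 0.04, 0.11 and 0.25. B2m was covered by at least 8.66 reads per bp in each library, against at most 3.4 for H2-K1. The deposited counts were made under a limit of 3 tags at a position. Genes were classed by their mean density over the libraries. The median absolute difference of heart and kidney was 0.15 log2 units over the 65 genes of at least 5 reads per bp, the class of B2m. It was 0.34 over the 524 genes of 2 to 5, the class of H2-K1, H2-D1 and H2-M3, and 0.60 over the 3168 genes of 0.2 to 2. These classes hold different genes. The part of the limit in the values of B2m and of these heavy chains was not tested, so similar values do not show equal expression. The 5 heavy chains summed to 416, 619 and 827 RPKM, in the same order as H2-K1 and H2-D1.

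**Figure D1:**
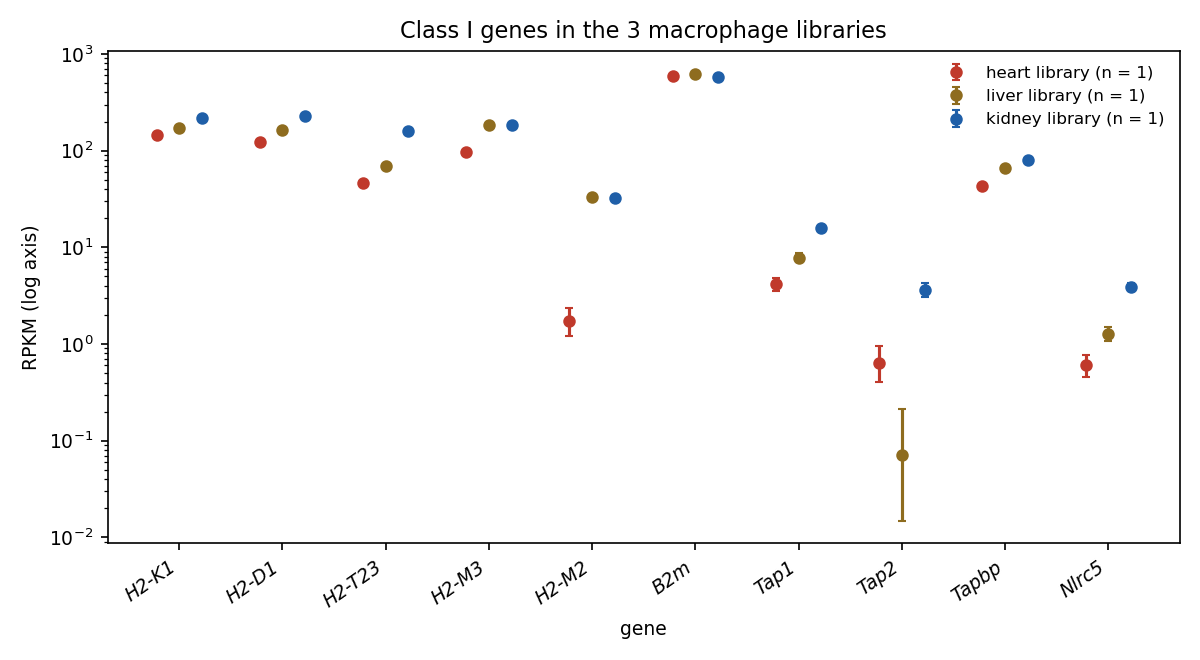
RPKM of the 10 class I genes on a log axis, with 1 point for each library and bars for the exact 95% Poisson interval of its reads. B2m lies level (599, 621 and 581), H2-M2 is low only in the heart (1.73 against 33.1 and 32.6), and Tap2 is lowest in the liver (0.072).

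The TAP transporter is a pair of the half-transporters Tap1 and Tap2, and both were far below H2-K1 and H2-D1. Tap1 stood at 4.14 RPKM in the heart (3.55 to 4.80), 7.85 in the liver (7.09 to 8.67) and 15.7 in the kidney library (14.6 to 16.9). The kidney level was 3.79 times the heart level (3.21 to 4.50) and 2.003 times the liver level (1.77 to 2.27), with no overlap among the 3 intervals. Tap2 stood at 0.642 RPKM in the heart (0.407 to 0.964, from 23 reads), 0.072 in the liver (0.0149 to 0.212, from 3 reads) and 3.61 in the kidney library (3.04 to 4.26, from 139 reads). The lowest library for Tap2 was the liver, not the heart. Kidney over liver was 50.1 (16.7 to 245) and heart over liver 8.92 (2.68 to 46.2), both resting on those 3 liver reads. Tap1 per Tap2 was 6.45, 109 and 4.36. The exon length of Tap2 in the deposited table is 2476 bp while the matched GENCODE transcript has 3442, and 19.8% of its exon bases lie in the exons of other annotated genes. Tap2 passed the filter used below, RPKM of at least 1 in some library, only through the kidney. The profiles nearest to Tap2 were Tagap1, Ptpre, Ict1, Tspo and Tada2a, at distances of 0.07 to 0.11, all highest in the kidney and lowest in the liver library.

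Tap1 and Tap2 lie beside the immunoproteasome genes Psmb9 and Psmb8, whose products replace subunits of the standard proteasome and favour peptides that fit class I. On chromosome 17 the order is Psmb9, Tap1 at 34187556 to 34197225, Psmb8 and Tap2 at 34204479 to 34216321. Psmb9 and Tap1 start 226 bases apart in opposite directions, so their promoter windows share 275 bases, and Psmb9 exons take 7.18% of the exon bases of Tap1. Psmb9 stood at 23.2, 122 and 115 RPKM. Its liver level was 5.27 times (4.63 to 6.01) and its kidney level 4.97 times (4.36 to 5.68) its heart level, and kidney over liver was 0.944 (0.878 to 1.014). Psmb8 stood at 58.7, 56.1 and 158 RPKM, so that heart and liver did not differ beyond counting error (1.05, 0.961 to 1.139) and the kidney was high. Each of the 4 neighbours thus had a profile of its own: low in heart for Psmb9, a gradient for Tap1, high in kidney for Psmb8 and near nothing in liver for Tap2. Psmb9 per Tap1 was 5.6, 15.6 and 7.34. Psmb8 shares 11.4% of its exon bases with the annotated gene Gm20496, which also overlaps Tap2.

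**Figure D2:**
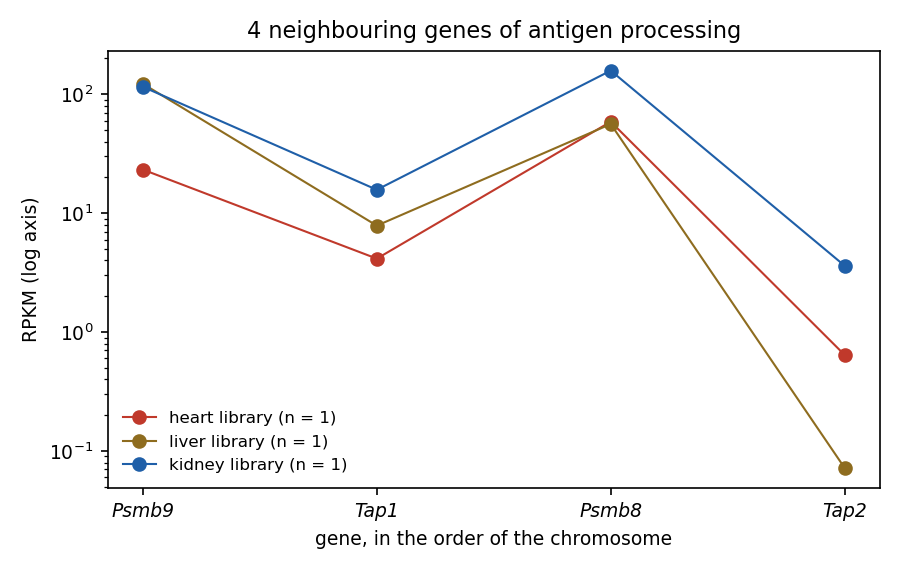
RPKM on a log axis of Psmb9, Tap1, Psmb8 and Tap2 in their order along the chromosome, with 1 point for each library, lines that only join points of a library, and no error bars. The kidney line is highest for Tap1 (15.7), Psmb8 (158) and Tap2 (3.61), the heart line is low at Psmb9 (23.2), and the liver line drops to 0.072 at Tap2.

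Tapbp encodes tapasin, which bridges TAP and the heavy chain. It stood at 43.5 RPKM in the heart (41.5 to 45.6), 66.5 in the liver (64.2 to 68.95) and 80.2 in the kidney library (77.5 to 82.9), so that the intervals were apart and in the order heart, liver, kidney. The kidney level was 1.84 times the heart level (1.74 to 1.95). Its kidney over heart ratio was below the 3.79 of Tap1. Of its exon bases 23.5% lie in the annotated gene Gm19412.

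Nlrc5, the class I coactivator, was with Tap2 one of the lowest members in the heart library, and their intervals there overlap. It stood at 0.602 RPKM in the heart (0.459 to 0.775, from 60 reads), 1.27 in the liver (1.08 to 1.497, from 147 reads) and 3.91 in the kidney library (3.54 to 4.30, from 419 reads). The kidney level was 6.49 times the heart level (4.95 to 8.66) and 3.07 times the liver level (2.54 to 3.73). Nlrc5 followed the same order as Tap1 and H2-T23, at a much lower level. None of its windows of 50 bases occurs in another gene. It lies on chromosome 8, 94472763 to 94527272.

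The 10 genes were then set against all 11482 genes that reached RPKM 1 in any library, on the scale of log2(RPKM + 1), which understates differences of low genes such as Tap2 and Nlrc5. All 10 passed this filter. Tap2 did so only through the kidney, so its being higher there in the counts below was partly fixed by the filter. The heart was the lowest library for 8 of the 10, all but B2m and Tap2, against 37.7% of all genes. With median ratio scaling this was 7, without H2-K1, against 31.6%. The order heart, liver, kidney held for 7, namely H2-K1, H2-D1, H2-T23, H2-M3, Tap1, Tapbp and Nlrc5, against 15.5% of all genes, although H2-M3 did not differ beyond counting error between liver and kidney. With median ratio scaling 7 genes had this order, with H2-M2 in place of H2-K1, against 13.4%.

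Between heart and kidney, 9 of the 10 were lower in the heart, against 59.5% of all genes, and this count was 9 with TPM and with median ratio scaling. At 1 log2 unit, 2-fold on this scale, 5 were lower in the heart, H2-T23, H2-M2, Tap1, Tap2 and Nlrc5, against 22.9% of all genes, and none was higher. Over all genes, 68.5% of the 2-fold differences were lower in the heart. At 2 log2 units, 4-fold, only H2-M2 was lower, against 5.1%, and none was higher, against 2.4%. By the plain ratio of RPKM Tap2 and Nlrc5 were past 4-fold too, but the share of all genes past 4-fold by that ratio was not taken. Tap2 passed the filter only through the kidney. The median of the 10 differences was -1.20 log2 units, with a range of -3.62 to 0.04, beside -0.23 over all genes.

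Between heart and liver, 9 were lower in the heart, against 54.7% of all genes, but 8 with TPM scaling and 7 with median ratio scaling, where B2m and then also H2-K1 changed sides. At 2-fold only H2-M2 was lower, against 24.9%, and none was higher, against 17.9%. This scale hides Tap2, whose plain ratio of heart over liver was 8.92 and whose difference was 0.62 log2 units, 1.44 with TPM and 2.11 with a pseudocount of 0.1, higher in the heart. At 4-fold only H2-M2 was lower, against 7.13%, and none was higher, against 5.33%. Among all genes past 4-fold, 57.2% were lower in the heart as deposited, 46.4% with TPM and 47.1% with median ratio scaling. The median of the members was -0.55 log2 units, beside -0.16 over all genes, a median that was -0.02 with TPM and 0.00 with median ratio scaling.

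Between kidney and liver, 2 of the 10 were lower in the kidney, H2-M2 and B2m, against 47.4% of all genes, but none with TPM and only B2m with median ratio scaling. H2-T23, Tap2 and Nlrc5 were 2-fold higher in the kidney, 3 genes against 24.2% of all, and none was 2-fold lower, against 17.7%. That is near the share of all genes. Tap2 alone was 4-fold higher, against 7.57%, and none was 4-fold lower, against 5.1%. As Tap2 passed the filter only through the kidney, its count here is no support. With a filter at RPKM 5, which drops Tap2, the 4-fold count was 0. The median was 0.43 log2 units, beside 0.04 over all genes. Each library enters 2 of the 3 comparisons, so they are not independent of each other.

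**Figure D3:**
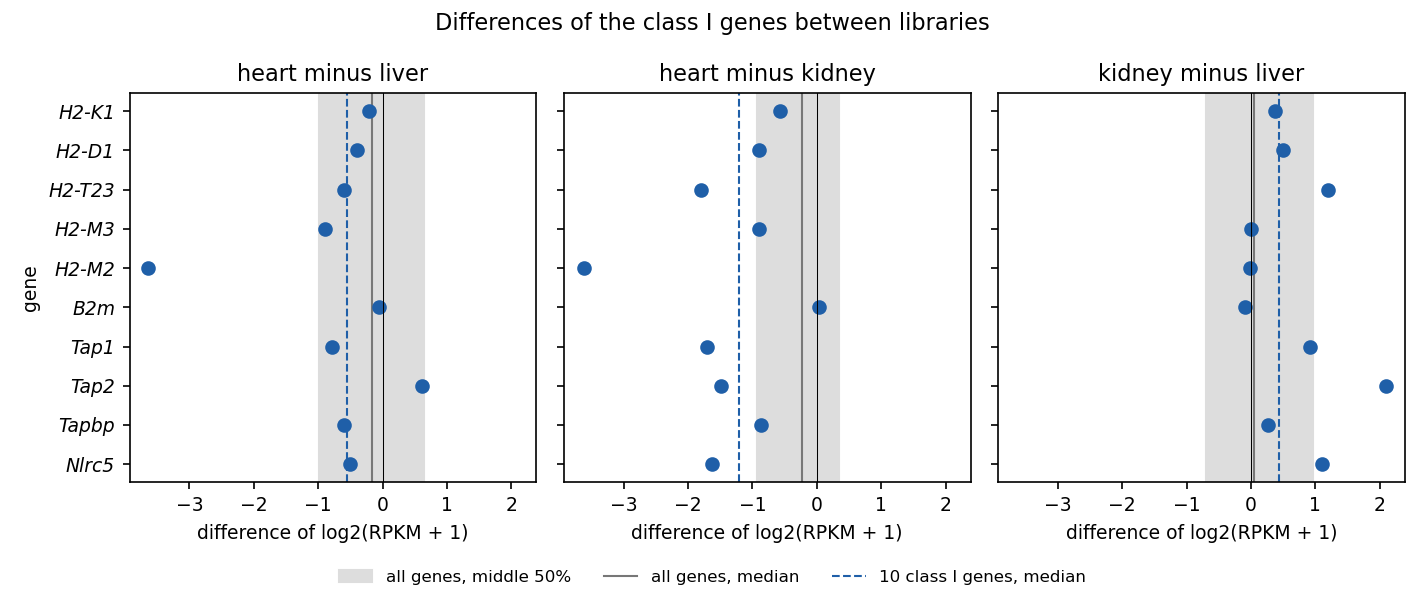
Differences of log2(RPKM + 1) of the 10 class I genes for the 3 comparisons, with 1 point per gene, the median of the 10 (dashed), the median of all 11482 genes compared (grey line), their middle 50% (grey band) and a thin black line at 0. For heart minus kidney the dashed line is at -1.20 and the grey line at -0.23, and H2-M2 is the farthest point in both comparisons of the heart (-3.64 and -3.62).

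Most other heavy chain genes of the H2 region had their lowest level in the heart too. Of 26 fixed symbols 25 were found, 15 passed the filter and 9 had 0 reads in every library, among them the H2-M10 genes. Of the 15, 13 were lowest in the heart, beside 37.7% of all genes, or 11 with median ratio scaling, beside 31.6%. Under each scaling 13 were 2-fold lower in the heart than in the kidney, beside 22.9% of all genes as deposited. As deposited 5 were 2-fold lower in heart than liver, beside 24.9%, and none was 2-fold higher in the heart than in either. Their medians were -1.58 log2 units for heart minus kidney and -0.68 for heart minus liver. Kidney minus liver had a median of 1.03. H2-T24 stood at 12.7, 53.1 and 40.1 RPKM. H2-Q1 stood at 1.03, 2.79 and 7.6 RPKM and was the 1 gene 4-fold lower in the heart than in the kidney on the log2(RPKM + 1) scale, against 5.1% of all genes. By the plain ratio of RPKM 7 of the 15 were, H2-Q1, H2-Q2, H2-Q6, H2-Q8, H2-Q10, H2-Bl and H2-M5. The share of all genes past 4-fold by the plain ratio was not taken. H2-M5 stood at 0.059, 0.359 and 1.38 RPKM, from 1 read in the heart. It passed the filter only through the kidney, so its place in these counts was partly fixed by the filter. H2-Q2 stood at 0.381, 1.21 and 4.25 RPKM, from 6 reads in the heart, and kidney over heart was 11.15 (4.88 to 31.4). H2-Bl stood at 0.479, 1.34 and 4.51 RPKM, from 8 reads in the heart, and kidney over heart was 9.41 (4.56 to 22.55). Several of these genes are near copies of one another, so the 15 are not separate measurements. All windows of H2-Q9 occur in H2-Q7, and 44.7% of those of H2-T22 occur in other genes.

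Genes that make and trim the peptides differed in pattern from list to list. Of the 7 genes of the immunoproteasome and the proteasome activator, Psmb9 and Psmb10 were 4-fold lower in the heart than in the kidney, beside 5.1% of all genes, and the medians were -0.69 for heart minus kidney and -0.89 for heart minus liver. Psmb10, the third immunoproteasome subunit, stood at 14.05, 53.04 and 93.5 RPKM, and Psme3, a nuclear activator, at 5.73, 13.2 and 3.5. The 14 genes of the standard proteasome had no 4-fold difference, where 2.4% to 7.57% of all genes had one in a given direction of a comparison. Their median was 0.21 for heart minus kidney and -0.43 for heart minus liver. For kidney minus liver it was -0.71, beside 0.04 over all genes, and -0.60 with TPM and -0.68 with median ratio scaling. As deposited, most of the 14 were highest in the liver library, but the share of all genes highest there was not taken. The median for heart minus liver was -0.25 with TPM and -0.19 with median ratio scaling. Psmb5, the subunit that Psmb8 replaces, stood at 8.86, 9.38 and 23.2 RPKM, and Psmb6, which Psmb9 replaces, at 111, 217 and 146. Psmb3 stood at 69.5, 169 and 99.7 RPKM and Psma5 at 109, 172 and 79.8.

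The 12 loading chaperones and trimming enzymes had medians of -0.17 for heart minus kidney, which turned to 0.03 with median ratio scaling, and 0.06 for heart minus liver. Tapbpl, the tapasin-related editor of class I peptides, was the 1 gene of this list with a 4-fold difference. It was lower in the heart than in the kidney, beside 5.1% of all genes, and 1 of 12 is near that share. Tapbpl stood at 2.58, 4.78 and 21.8 RPKM, 8.45 times higher in the kidney than in the heart (6.67 to 10.84), a wider range than that of Tapbp. Calr, which encodes the chaperone calreticulin, stood at 209, 121 and 230.3 RPKM and the translocon gene Sec61a1 at 33.3, 71.3 and 77.1. Lap3, an aminopeptidase, stood at 19.2, 23.07 and 42.8 RPKM.

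Of 15 regulators 14 passed the filter, and 8 of them were 2-fold lower in the heart than in the kidney, beside 22.9% of all genes. In the other direction 2 were 2-fold higher in the heart. Over all genes, 68.5% of the 2-fold differences between heart and kidney were lower in the heart. The medians were -1.13 for heart minus kidney and -0.78 for heart minus liver. Ciita, the class II relative of Nlrc5, stood at 1.45, 4.29 and 23.6 RPKM, 16.3 times higher in the kidney than in the heart (13.55 to 19.8). Irf1, an interferon-induced activator of class I genes, stood at 65.9, 23.2 and 209 RPKM, lowest in the liver as Tap2 was. Rfxank and Nfyb belong to the complexes on the X and Y boxes and had opposite profiles. Rfxank stood at 1.62, 24.6 and 8.37 RPKM and Nfyb at 34.2, 3.05 and 13.5.

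Several class I-like genes outside the H2 region were highest in the liver. Against the liver, 4 of 7 genes were 4-fold lower in the heart, beside 7.13% of all genes, and 3 were 4-fold lower in the kidney, beside 5.1%. The medians were -2.34 and -1.89, and Azgp1 passed the filter only through the liver. Hfe, the iron regulator, had nearly equal values, 79.3, 79.2 and 79.1 RPKM, and was named after they were seen. Cd1d1, which presents lipids to NKT cells, stood at 16.9, 177 and 32.9 RPKM, and its liver level was 5.38 times its kidney level. Its near copy Cd1d2 stood at 2.85, 56.1 and 9.47 RPKM, and reads of this pair may be shared. Procr, the endothelial protein C receptor, stood at 4.89, 28.9 and 9.06 RPKM and Azgp1, a secreted protein known from liver, at 0, 6.16 and 0. The 7 hepatocyte markers, at 0.455, 287 and 0.22 RPKM in sum, were high in the same library. So was the sum of the endothelial markers other than Lyve1, 8 genes at 10.86, 271 and 12.4 RPKM. Among them Clec4g stood at 1.24, 128.5 and 0, Stab2 at 0, 57.5 and 0, and Cdh5 at 0.766, 52.9 and 0.032. Emcn, at 5.257, 0.908 and 3.955, and Tek, at 0.044, 0.026 and 0.454, went the other way and were lowest in the liver. The part of either list in these liver levels was not tested.

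**Figure D4:**
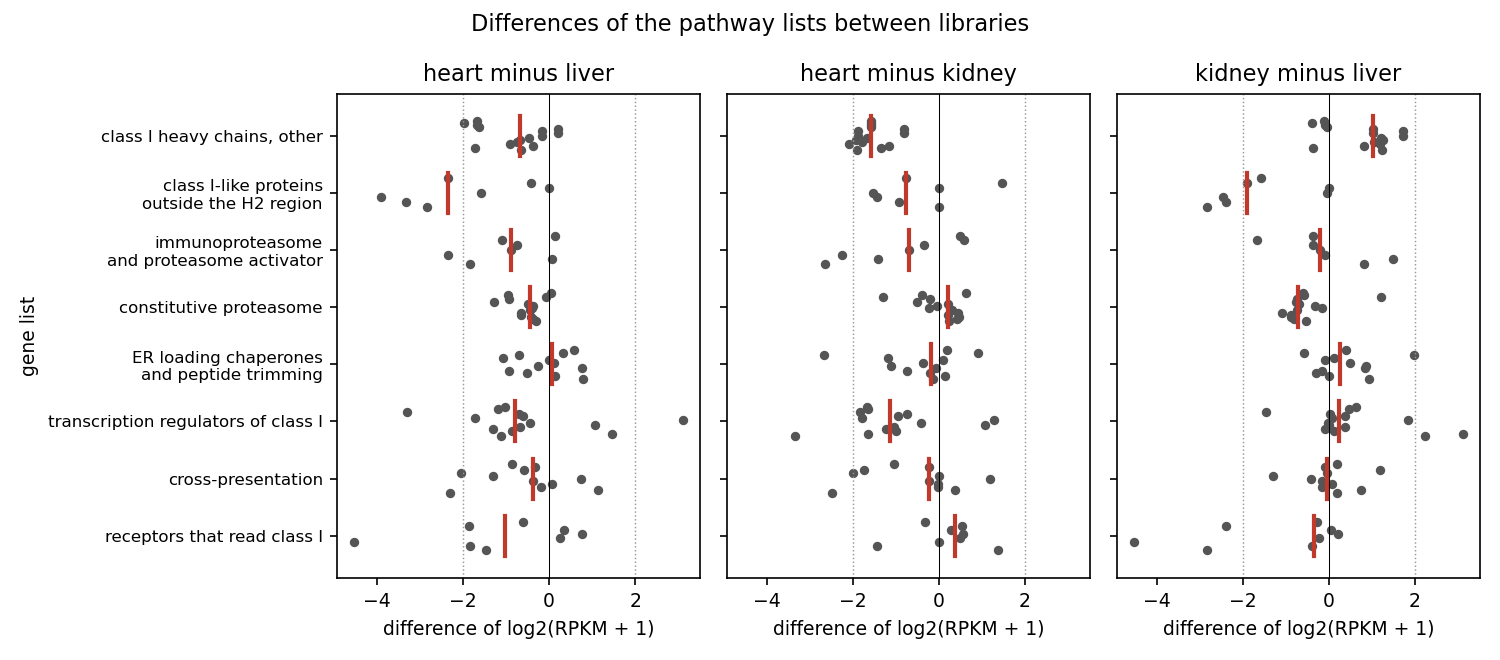
Differences of log2(RPKM + 1) for the genes of 8 pathway lists that passed the filter, with 1 point per gene, a red bar at the median of each list, a solid line at 0 and dotted lines at 2 log2 units, in 3 comparisons. The other class I heavy chains lie to the left for heart minus kidney (median -1.58), and the class I-like proteins lie to the left against the liver in both comparisons (-2.34 for the heart and -1.89 for the kidney).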

How the data were processed

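RNA-seq libraries of sorted macrophages, 1 from each of 3 tissues, were compared. The authors deposited RPKM for RefSeq transcripts, made with HOMER analyzeRepeats.pl per the file headers, counting exon reads on both strands for mm10 with the option -pc 3. The column names call the values FPKM. CASAVA and STAR are named in the submitters' processing notes, with versions not given in the sources used here. RPKM times exon length summed to 1000000 in each library. Reads were recovered from the steps of low values, of which 99.97%, 99.88% and 99.95% lay within 0.1 of a whole read (heart, liver, kidney, values up to 500 reads). Exon length, also deposited by the authors, came from the same table. After keeping the longest coding transcript per symbol, else the longest noncoding one, 8751978, 10373696 and 9485368 reads were left. 

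Differences were taken on log2(RPKM + 1). No test was run. The depth recovery and the ratio intervals were checked on simulated data. The members and lists were chosen with earlier results of these data known. Named are all members, up to 4 genes of each list with the widest range, and the 5 nearest profiles of members with a range of at least 2 log2 units. Of the 2 most abundant genes of each marker list only some are named. H2-T22, H2-T-ps, Hfe, H2-Q6 to H2-Q10, H2-M5, the marker genes at 0 reads, Cdh5, Cd3g, Nkg7 and Klrb1c were chosen after their values were seen. So were Emcn, Tek, Cd4, Lck and Klrd1. Shared windows of 50 bases and shared exon bases came from GENCODE M21, and promoters from RefSeq. The alternatives changed the pseudocount, scaling, filter, transcript choice and read density. Python 3.11.15, NumPy 2.4.6, SciPy 1.17.1, pandas 2.3.3 and matplotlib 3.10.9 were used.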

Additional observations from a re-analysis of the deposited data

How the results depend on the processing

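The median of the 10 genes kept its sign in all 3 comparisons under all 9 alternatives. For heart minus kidney it was -1.36 and -0.84 with pseudocounts of 0.1 and 5, -1.29 with TPM, -1.04 with median ratio scaling, -0.90 with a filter at RPKM 5 (8 genes, without Tap2 and Nlrc5) and -1.62 over the 5 genes with at most 2 reads per bp. For heart minus liver it was -0.43 with a pseudocount of 5 and with TPM, and -0.36 with median ratio scaling. For kidney minus liver it was 0.55 with TPM, 0.32 with the stricter filter and 0.92 over the 5 less dense genes. Counts at 4-fold with a pseudocount of 0.1 were 2 (heart against liver, H2-M2 lower and Tap2 higher in the heart), 3 (heart against kidney) and 1 (kidney against liver). With TPM the count for heart against kidney was 3. The genes 4-fold lower in the heart than in the kidney also rose with TPM, from 586 to 1247 of all 11482. TPM brought summed RPKM of 274524, 311614 and 286523 to 1000000 with the pseudocount kept at 1, so it also gave the pseudocount less weight. For kidney against liver the count was 0 with a pseudocount of 5 and with the stricter filter, which drops Tap2. Counts at 2-fold were 2 for heart against liver with a pseudocount of 0.1 and with TPM, again with Tap2 higher in the heart, and 3 (heart against kidney) and 1 (kidney against liver) with a pseudocount of 5 and with the stricter filter. Among the 5 less dense genes, 4 were lowest in the heart and 3 had the order heart, liver, kidney, from fewer genes. Of the 30 single differences, 3 changed sign with TPM (B2m against the liver in both comparisons with it, and H2-M2 for kidney minus liver) and 3 with median ratio scaling (H2-K1 and B2m for heart minus liver, H2-M2 for kidney minus liver). None changed sign in the other 7 alternatives. With 1 library per tissue no replicate could be left out and no paired analysis was possible. The counts at 2-fold, of the lowest library and of the order, the scaling of the pathway lists, the density classes, the plain ratios and the endothelial sum without Lyve1 were added after seeing the data. Depth limits Tap2 in the liver most, at 3 reads.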

Other observations

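Genes that read class I or take part in cross-presentation were also measured. Of 10 receptor genes 8 passed the filter, and the median difference was -1.03 log2 units between heart and liver, 0.38 between heart and kidney and -0.34 between kidney and liver, each taken as the first minus the second. Values in a row are for heart, liver and kidney. Klrc1, a chain of the receptor for the H2-T23 product on natural killer cells, stood at 0, 22.03 and 0 RPKM, and the 12 T and NK cell markers summed to 21.6, 90.9 and 17.01 RPKM. Within that list Cd3g, Cd2, Gzma and Nkg7 were highest in the liver library, while the NK cell genes Klrb1c, at 1.03, 0 and 1.1 RPKM, and Ncr1, at 0 in all 3, were not. Lck, at 0.705, 0 and 0.447 RPKM, and Cd4, at 3.72, 4.998 and 15.46, were not highest there either. The part of T and NK cells in the Klrc1 level was not tested. Klrd1, also of the receptor list, stood at 10.56, 8.7 and 7.27 RPKM. Pira2, an activating immunoglobulin-like receptor that binds class I, stood at 30.1, 111 and 20.4 RPKM, Klra2, of the Ly49 family, at 63.5, 229.5 and 174.2, and Klra17 at 1.6, 6.14 and 0. Of 12 cross-presentation genes 11 passed, with medians of -0.38 for heart minus liver and -0.22 for heart minus kidney. Batf3, a transcription factor needed by cross-presenting dendritic cells, stood at 1.37, 10.56 and 12.2 RPKM, with a kidney over liver ratio of 1.15 (0.898 to 1.485), and Rab43, a trafficking GTPase, stood at 2.62, 13.9 and 13.4. Both were low in the heart, as H2-M2 was. Sec22b, which brings endoplasmic reticulum proteins to phagosomes, stood at 6.08, 9.48 and 22.8 RPKM, and Rab3b at 0, 1.46 and 0.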
